A study of Mus musculus with 6 samples.

Results

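The cadherins, protocadherins and their close relatives were followed across RNA-seq libraries of mouse glioma cells grown in serum or as neurospheres. Members were taken by symbol: numbered cadherins, Cdhr genes, protocadherins, desmogleins and desmocollins, Fat, Celsr, Dchs and calsyntenin genes, and the alpha and delta catenins. The rule found 51 of the 12151 genes listed, of which 6 are classical cadherins, 30 are clustered protocadherins (11 of the beta and 19 of the gamma cluster) and 15 are other members. In the GENCODE annotation 122 coding genes match the same names, and 50 of them are among the listed genes. The remaining ones, which include Cdh1 (E-cadherin), all 9 desmogleins and desmocollins and all 13 Pcdha genes, were not analysed here.

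GL261 is a mouse glioma line, and its 3 libraries, labelled as differentiated glioma cells, came from cultures in DMEM with fetal bovine serum at passages 17, 33 and 34 (for the last, the title gives 34 and the passage field 33). The mNS cells, labelled as glioma stem-like, were kept as neurospheres in DMEM/F12 without serum but with B-27, basic FGF, EGF and heparin, and gave 3 libraries at passages 72, 77 and 85. Both media contained β-mercaptoethanol. No treatment or genotype other than that of the cells is given, and the cells, their medium and their range of passages all changed at once, so that the parts of these in any difference cannot be told apart. Apart from the passage, nothing in the labels marks the 3 libraries of a group as independent cultures, and the spread behind each p-value may be technical.

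Cadherins are calcium-dependent adhesion proteins. Classical cadherins bind the same kind of cadherin on a neighbouring cell and hold actin at the membrane through beta and alpha catenin. The p120 catenin keeps them at the surface. Protocadherins have other cytoplasmic tails: the clustered ones are made from arrays of alternative exons, each with its own promoter, and give nerve cells combinations of surface proteins, while the nonclustered ones guide cell movement, axons and synapses. Fat, Dachsous and Celsr proteins are very large cadherins that orient cells within a sheet.

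Between 12534422 and 14225175 reads per library fell in the listed genes, and 1 read was worth 0.0708 to 0.0773 CPM (reads scaled to library size). A gene was called where limma gave a Benjamini-Hochberg adjusted p under 0.05, on log2(CPM + 1), over the 12006 genes that averaged 1 CPM or more. Log2 differences are mNS minus GL261 on that scale, which understates the change of low genes. Folds are ratios of group means in CPM, and means are given ± SD over 3 libraries. In these cultures, fewer cells of a type and less RNA per cell cannot be told apart. Among markers of other cell types, the 7 endothelial genes and 5 of 8 immune genes, Ptprc and Aif1 among them, were outside the listed genes and not analysed here. The summed level of the 3 listed immune markers was 7.38 to 7.59 CPM in GL261 and 15.5 to 21.2 CPM in mNS. Of these, Cd68 and Cd14 were called higher in mNS, whereas Csf1r, under the limit for testing, had means of 1.68 CPM in GL261 and 0.0488 CPM in mNS with no overlap. The 3 listed of 7 epithelial markers, Epcam, Krt8 and Krt18, summed to 5.22 to 5.78 CPM in GL261 and 65.4 to 107 CPM in mNS, while Krt19, Cldn3, Cldn4 and Esrp1 were not analysed. The 4 listed of 8 fibroblast markers summed to 277 to 442 CPM in GL261 and 95.3 to 231 CPM in mNS. Col3a1, the largest of them by its means (230 and 146 CPM), was not called. Col1a1 (127 and 6.18 CPM), Postn (19.4 and 1.67 CPM) and Pdgfrb (2.41 and 0.123 CPM) were lower in mNS. The 2 listed of 7 neuronal markers summed to 224 to 248 CPM in GL261 and 12.9 to 18.3 CPM in mNS. That neuronal sum was mostly Tubb3, lower in mNS (means of 234 and 8.85 CPM), while Syt1 was higher (0.767 and 6.38 CPM). Of the 10 glioma and neural progenitor markers, 4 were higher in mNS and 5 were lower, beside 64.3% of all genes called. Olig2, Olig1, Fabp7 and Pdgfra were higher, Nes, Vim, Gfap, S100b and Cspg4 were lower, and Sox2 was not called. The part of these marker genes in the differences between members was not tested.

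Of the 49 members that averaged 1 CPM or more, 11 were higher in mNS, 23 were lower and 15 were not called. Of all genes tested 64.3% were called, so that 34 called members of 49 are near the background. For single directions the background was 32.2% higher and 32.1% lower. Of the 49, 15 were called with a fitted difference of at least 2-fold (7 higher and 8 lower), against 19.7% of all genes. The median absolute log2 difference was 0.64 for members and 0.40 for all genes tested. The 3 values of each group did not overlap for 39 members, against 69.9% of all genes. The 15 were 3 of 6 classical cadherins, 6 of 7 nonclustered protocadherins, 4 of 28 clustered protocadherins, Dchs1 and Clstn1.

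**Figure D1:**
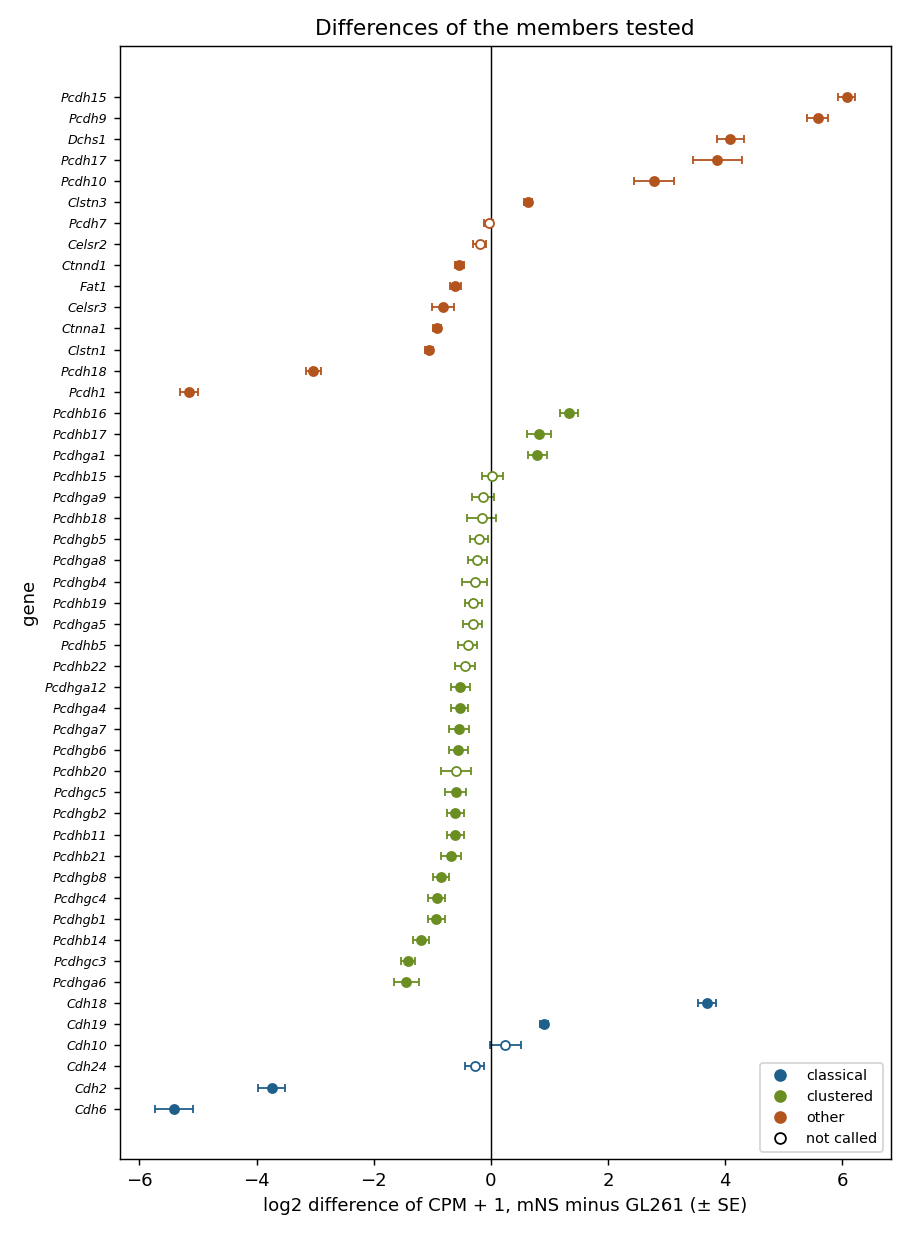
Log2 difference (mNS minus GL261, on log2(CPM + 1)) of each of the 49 members tested, coloured by class, with its standard error and open points for members not called. Nonclustered protocadherins and classical cadherins span from -5.41 to 6.08, whereas the clustered protocadherins lie between -1.45 and 1.34.

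The classical cadherins exchanged their leading members. In GL261 the neural cadherin Cdh2 and the type II cadherin Cdh6 were abundant, and both were low in mNS, where Cdh19 was by far the highest and Cdh18 stood well above its GL261 level. Cdh2 (chr18:16588877-16809246, GRCm38), the main cadherin of neuroepithelium and of many motile cells, was measured at 742, 922 and 939 CPM in GL261 at passages 17, 33 and 34 and at 97.4, 54.3 and 48.4 CPM in mNS at passages 72, 77 and 85. Every GL261 library was thus above every mNS library, with the highest mNS value at passage 72. Its mean fell from 868 ± 109 to 66.7 ± 26.8 CPM, 13.0-fold (log2 difference -3.74 ± 0.23 SE, limma adjusted p = 2.03e-06).

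Cdh6, a cadherin of the developing kidney, neural crest and hindbrain, gave 506, 285 and 259 CPM in GL261 and 10.3, 7.65 and 3.97 CPM in mNS. The groups lay far apart, and in both of them the earliest passage was the highest. Its mean was 47.8-fold lower in mNS (350.1 ± 136 against 7.32 ± 3.20 CPM, log2 difference -5.41 ± 0.32, limma adjusted p = 1.77e-06). Cdh18, a type II cadherin known from the nervous system, went the other way. It stood at 0.522, 0.448 and 0.289 CPM in GL261, 17 reads in all, and at 21.1, 15.1 and 16.2 CPM in mNS, 704 reads in all. It passed the 1 CPM limit for testing only through mNS. No library of one group approached the other, and the means differed 41.6-fold (log2 difference 3.69 ± 0.16, limma adjusted p = 2.64e-07).

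Cdh19 (chr1:110888326-110977584), a type II cadherin known from glia of the peripheral nervous system, was high in both groups. It was measured at 282, 333 and 318 CPM in GL261 and at 592, 591 and 564 CPM in mNS. The values within each group were close together, and the mean rose 1.87-fold from 311 ± 26.3 to 582 ± 15.7 CPM (log2 difference 0.91 ± 0.07, limma adjusted p = 8.5e-06). Cdh10, a type II cadherin of the brain, was not called (log2 difference 0.25 ± 0.26, limma adjusted p = 0.433). Its GL261 values of 19.7, 12.3 and 7.80 CPM enclosed the mNS values of 16.0, 13.8 and 15.1 CPM. Without the passage 17 library Cdh10 was called higher in mNS, with a log2 difference of 0.56 and a limma adjusted p of 0.024. Cdh24 was low in both groups and not called, with means of 4.54 ± 0.773 and 3.59 ± 0.599 CPM.

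**Figure D2:**
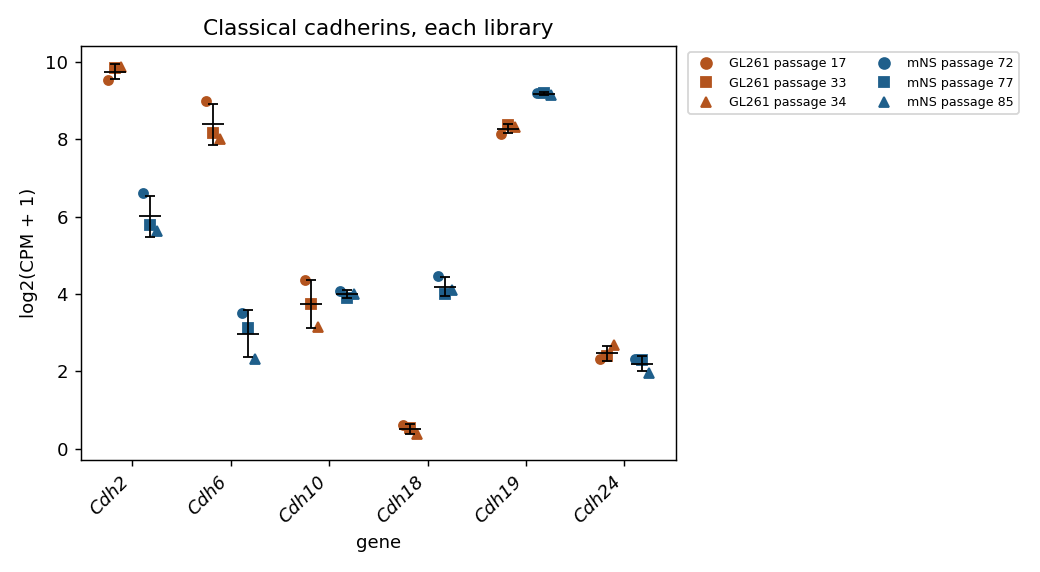
CPM of the 6 classical cadherins in each library on a log2(CPM + 1) axis, with marker shape for the passage and black bars for the mean and SD of each group. Cdh2 and Cdh6 are high in GL261 and low in mNS, Cdh18 and Cdh19 are higher in mNS, and the groups overlap for Cdh10 and Cdh24.

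Levels of different genes were compared per kilobase of annotated exon. The gene models behind the reads may differ from that annotation, and which transcripts of a gene were present is not known. Orders and shares per kb therefore depend on the lengths chosen. On that scale the summed classical cadherins of mNS came to 152 ± 7.33 CPM per kb, against 222 ± 4.54 in GL261. Cdh2 supplied 48.4% ± 5.36 of the sum in GL261, Cdh19 32.7% ± 2.14 and Cdh6 17.6% ± 7.17. In mNS, Cdh19 alone supplied 89.9% ± 2.48, Cdh2 5.40% ± 1.91, Cdh18 2.53% ± 0.372 and Cdh6 0.529% ± 0.210. The order of levels per kb in GL261 was Cdh2, Cdh19, Cdh6, then Cdh10 and Cdh24, whose libraries overlapped, and last Cdh18. In mNS it was Cdh19, Cdh2, Cdh18 and Cdh10, followed by Cdh24 and Cdh6, which overlapped. So Cdh6 went from the third place to the last, and Cdh18 from the last to the third.

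**Figure D3:**
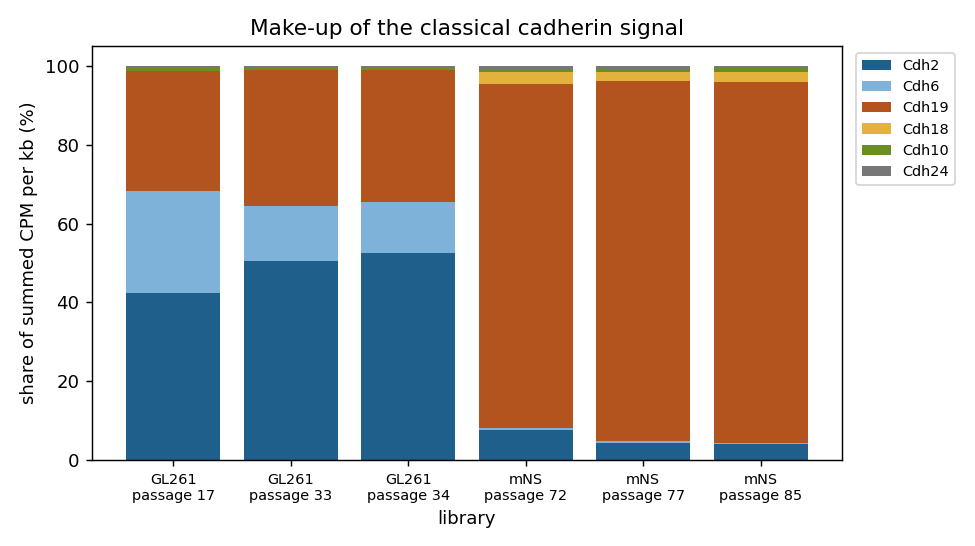
Share of the summed CPM per kb held by each gene in each library, in percent, for the 6 classical cadherins. Cdh19 holds 89.9% ± 2.48 of the classical sum in mNS and 32.7% ± 2.14 in GL261, where Cdh2 holds 48.4% ± 5.36.

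Cdh6 and Cdh18 lie on the same chromosome and were at opposite ends of the classical cadherins in these cells. Their promoter windows, the 250 bases before an annotated RefSeq start (build GRCm38.p6), are shown to set the genes side by side. The Cdh6 window is chr15:13173676-13173925 on the minus strand and directly adjoins the gene (chr15:13028701-13173675). The Cdh18 window is chr15:23036213-23036462 on the plus strand and lies inside the longer GENCODE gene model (chr15:22549022-23474418). Both are written 5′ to 3′ on the strand of the gene, in lower case. Capitals mark GGGCGG or its reverse complement CCGCCC, the GC box to which Sp-family factors bind.
Cdh6: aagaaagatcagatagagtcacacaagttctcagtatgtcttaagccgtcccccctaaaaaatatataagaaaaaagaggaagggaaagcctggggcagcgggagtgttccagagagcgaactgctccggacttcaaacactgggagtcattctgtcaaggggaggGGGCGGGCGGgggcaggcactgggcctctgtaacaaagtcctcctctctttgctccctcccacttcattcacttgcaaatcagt
Cdh18: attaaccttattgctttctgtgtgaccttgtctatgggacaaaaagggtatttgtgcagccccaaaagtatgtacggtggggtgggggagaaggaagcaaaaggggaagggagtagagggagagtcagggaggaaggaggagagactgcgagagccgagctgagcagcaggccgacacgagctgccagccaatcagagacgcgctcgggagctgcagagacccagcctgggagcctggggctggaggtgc
The Cdh6 window has 6 CpG dinucleotides and 2 overlapping GC-box matches, and the Cdh18 window has 8 CpG and none. Of all 32851 RefSeq windows of this length, 32.7% hold a match on either strand, and the median window has 6 CpG. The E-box to which Snail and Zeb repressors of cadherin genes bind is CAGGTG or its reverse complement CACCTG. It is in neither window and in 17.2% of all windows. With no E-box match, no overlap between the motifs arises in these windows. Matches are given as a description of these letters only.

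The 7 nonclustered protocadherins also changed places: 4 were higher in mNS, 2 were lower and 1 was not called. As background, 64.3% of all genes passed the same threshold, 32.2% with a rise and 32.1% with a fall. The log2 differences of these protocadherins ran from -5.15 to 6.08. Their median of 2.79 is the value of Pcdh10 alone and does not describe a common rise. The median of all genes was -0.00. The summed level of these protocadherins per kb of exon, given below, was lower in mNS. Pcdh15 (chr10:73099342-74649737), a component of the tip links of hair cells that is also transcribed in oligodendrocyte precursors, had the largest difference of all members. It had 12 reads in GL261 (0.298, 0.149 and 0.433 CPM) and 3494 reads in mNS (100.03, 86.8 and 74.1 CPM). All mNS libraries were far above all GL261 libraries, and it passed the 1 CPM limit for testing only through mNS. The ratio of the means was 296, with an exact 95% counting interval of 169 to 574 (Clopper-Pearson), and the log2 difference was 6.08 ± 0.15 (limma adjusted p = 1.57e-08). Such intervals cover counting error only.

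Pcdh9 (chr14:93013410-93890679), a delta-1 protocadherin of the nervous system, was similar. Its values were 0.447, 0.224 and 0 CPM in GL261, 9 reads in all, and 71.0, 53.3 and 48.6 CPM in mNS, 2317 reads in all. The ratio was 258 (counting interval 135 to 564; log2 difference 5.58 ± 0.19, limma adjusted p = 6.37e-08), and 514 without the passage 17 library. The exact size is therefore poorly fixed, although no library of one group reached the other. Pcdh1, a delta-1 protocadherin known from epithelia, went the opposite way, with 130, 112 and 119 CPM in GL261 and 3.32, 1.93 and 2.12 CPM in mNS. Its mean fell 48.8-fold, from 120 ± 8.88 to 2.46 ± 0.753 CPM (log2 difference -5.15 ± 0.15, limma adjusted p = 3.72e-08). The delta-1 member Pcdh7 was measured at 58.8, 51.8 and 49.6 CPM in GL261 and at 52.0, 52.6 and 51.1 CPM in mNS. These ranges overlapped, and it was not called (log2 difference -0.04 ± 0.08, limma adjusted p = 0.709). In the annotation 21.1% of its exon bases lie opposite the noncoding gene 4932441J04Rik. The libraries are stranded per the labels, but the strand setting of the counting is not given in the sources used.

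All 3 delta-2 protocadherins, whose tails bind the actin-regulating WAVE complex, were called, beside 64.3% of all genes. Pcdh17, known from the assembly of synapses, gave 21.5, 5.91 and 5.49 CPM in GL261 and 178, 132 and 131 CPM in mNS. The passage 17 library stood above the other GL261 libraries, still well under mNS. The mean rose from 10.96 ± 9.11 to 147 ± 26.7 CPM, 13.4-fold, or 25.8-fold without that library (log2 difference 3.87 ± 0.42, limma adjusted p = 6.18e-05). Pcdh10, known from axon growth in the forebrain, gave 4.70, 3.14 and 3.11 CPM in GL261 and 56.4, 26.4 and 19.3 CPM in mNS. Here the passage 72 library was the highest of mNS. The mean was 9.33-fold higher in mNS (3.65 ± 0.909 against 34.03 ± 19.7 CPM, log2 difference 2.79 ± 0.34, limma adjusted p = 0.000125). Pcdh18, which binds the adaptor Dab1, was the member of this kind that fell, from 247, 215 and 189 CPM in GL261 to 30.7, 23.7 and 22.7 CPM in mNS. Its groups did not overlap, and its mean was 8.44-fold lower (217 ± 28.7 against 25.7 ± 4.31 CPM, log2 difference -3.03 ± 0.13, limma adjusted p = 2.52e-07).

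Per kb of exon, the nonclustered protocadherins summed to 60.2 ± 7.27 CPM per kb in GL261 and 35.6 ± 6.44 in mNS. Pcdh18 and Pcdh1 supplied 67.1% ± 1.70 and 22.8% ± 1.87 of it in GL261. In mNS the sum was spread over more genes, with 31.8% ± 0.856 from Pcdh17, 23.8% ± 0.585 from Pcdh9, 14.0% ± 2.27 from Pcdh7, 13.5% ± 0.214 from Pcdh18 and 10.3% ± 0.669 from Pcdh15. Pcdh10 supplied 0.378% of the sum in GL261 and 5.75% ± 2.26 in mNS, and Pcdh1 fell to 0.777% ± 0.107. The exon lengths used differ widely, with 23.8 kb for Pcdh15 and 6.78 kb for Pcdh9, and other gene models could give other shares.

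The windows before the RefSeq starts of the delta-2 protocadherins are printed because these 3 related genes moved in both directions. They are chr3:45378148-45378397 on the plus strand for Pcdh10, chr14:84443313-84443562 on the plus strand for Pcdh17 and chr3:49757317-49757566 on the minus strand for Pcdh18 (GRCm38.p6). Capitals again mark GGGCGG or CCGCCC.
Pcdh10: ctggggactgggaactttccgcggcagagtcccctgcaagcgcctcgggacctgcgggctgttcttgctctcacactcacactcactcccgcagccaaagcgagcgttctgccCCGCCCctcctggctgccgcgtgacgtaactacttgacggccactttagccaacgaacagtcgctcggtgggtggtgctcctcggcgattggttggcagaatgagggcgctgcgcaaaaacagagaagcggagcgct
Pcdh17: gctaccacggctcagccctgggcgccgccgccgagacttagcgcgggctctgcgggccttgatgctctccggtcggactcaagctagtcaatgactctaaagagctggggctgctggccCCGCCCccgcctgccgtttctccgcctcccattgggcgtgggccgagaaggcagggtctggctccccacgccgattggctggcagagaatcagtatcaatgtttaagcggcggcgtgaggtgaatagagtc
Pcdh18: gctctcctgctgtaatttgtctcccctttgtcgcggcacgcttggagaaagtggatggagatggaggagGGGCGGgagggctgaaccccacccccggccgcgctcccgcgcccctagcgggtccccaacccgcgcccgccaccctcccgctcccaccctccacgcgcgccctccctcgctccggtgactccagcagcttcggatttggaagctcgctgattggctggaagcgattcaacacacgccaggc
All 3 are rich in CpG, with 22, 21 and 23 against the median of 6 in all windows. Each has 1 GC-box match and none has CAGGTG or CACCTG. In these features the 3 windows resemble each other. That is a description of these letters only, and a link to the differences was not tested. RefSeq windows were matched for 16 of the 51 members, 19 windows in all; 42.1% of these hold a GC-box match and 21.1% hold CAGGTG or CACCTG, against 32.7% and 17.2% of all windows. The 4 genes with CAGGTG or CACCTG are Celsr2, Clstn3, Fat1 and Pcdh15.

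The large cadherins of tissue polarity showed 1 strong rise. Dchs1 (chr7:105752990-105787654), the ligand of the receptor Fat4, was measured at 2.98, 6.20 and 5.64 CPM in GL261 and at 122, 93.2 and 80.9 CPM in mNS. The mNS libraries lay above all GL261 libraries, with the highest value at passage 72. The mean rose 20.0-fold from 4.94 ± 1.72 to 98.7 ± 21.1 CPM (log2 difference 4.09 ± 0.23, limma adjusted p = 1.3e-06). Fat4 was not among the listed genes and was not analysed here. Fat1, a giant cadherin mutated in several cancers, had 600.4, 509 and 501 CPM in GL261 and 390, 332 and 335 CPM in mNS. It fell 1.52-fold, a small change next to that of Dchs1, with no overlap (log2 difference -0.61 ± 0.09, limma adjusted p = 0.000446). Of the Celsr genes, which act in planar polarity and axon guidance, Celsr3 was lower in mNS (2.39 ± 0.124 against 0.951 ± 0.457 CPM, log2 difference -0.82 ± 0.19, limma adjusted p = 0.00486). Celsr2 was not called, with means of 15.2 ± 0.988 and 13.2 ± 1.33 CPM.

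The calsyntenins, membrane cadherins of vesicle transport and synapses, moved in opposite directions. Clstn1, an adaptor for kinesin, gave 255, 259 and 278 CPM in GL261 and 131, 132 and 118 CPM in mNS, a fall of 2.08-fold (log2 difference -1.05 ± 0.07, limma adjusted p = 2.53e-06). Clstn3 gave 37.0, 38.4 and 39.0 CPM in GL261 and 59.0, 59.4 and 61.0 CPM in mNS, a rise of 1.57-fold (log2 difference 0.64 ± 0.07, limma adjusted p = 5.8e-05). In both genes the libraries of a group were close together and the groups stood apart. The catenins of the rule were both lower in mNS. Ctnna1, which links the cadherin complex to actin, was measured at 660, 698 and 713 CPM in GL261 and at 345, 368 and 381 CPM in mNS, 1.89-fold lower (log2 difference -0.92 ± 0.06, limma adjusted p = 3.08e-06). Ctnnd1, the p120 catenin that keeps cadherins at the surface, fell 1.46-fold from 331, 276 and 283 CPM to 198, 200 and 211 CPM (log2 difference -0.54 ± 0.08, limma adjusted p = 0.000318). For both catenins, every mNS library was under every GL261 library. For Ctnnd1, 61.2% of the exon bases are also annotated to the readthrough gene model Gm28635, and the assignment of reads there is not given in the sources used.

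**Figure D4:**
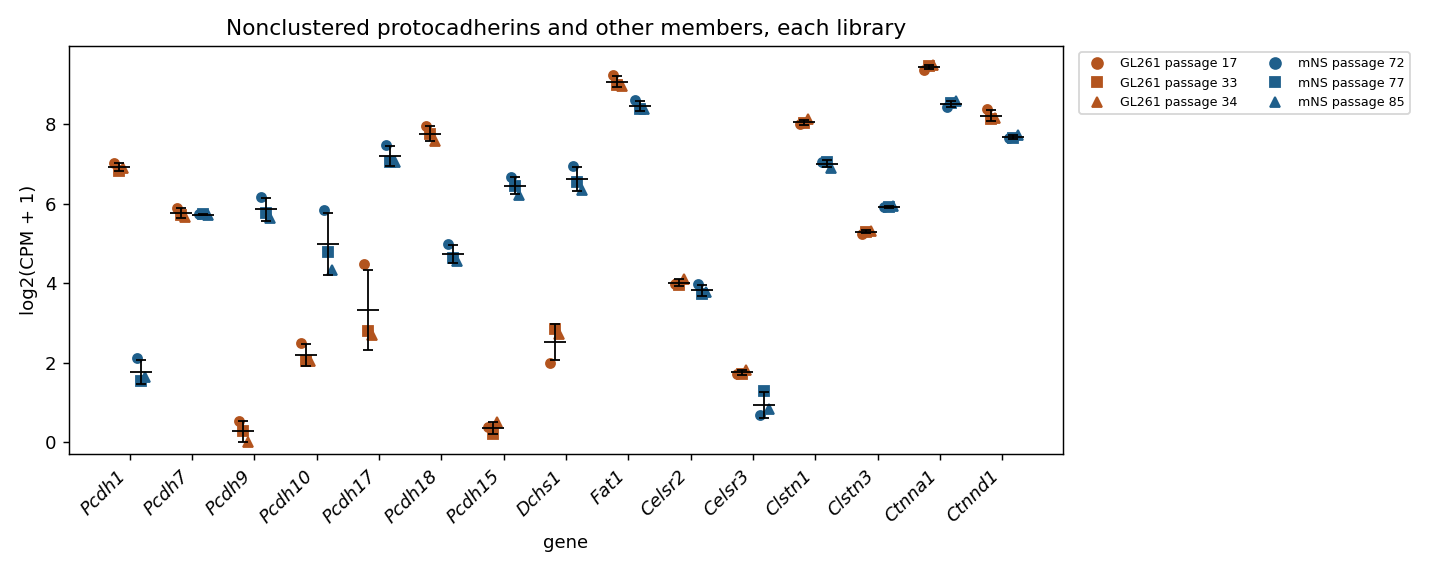
CPM of the 15 other members in each library on a log2(CPM + 1) axis, with marker shape for the passage and black bars for the mean and SD of each group. Pcdh15, Pcdh9, Pcdh17, Pcdh10 and Dchs1 are at least 9.33-fold higher in mNS by their means, Pcdh1 and Pcdh18 at least 8.44-fold lower.

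Most clustered protocadherins were low. The listed ones lie in a single stretch, from the start of Pcdhb5 to the end of Pcdhgc5 (chr18:37320381-37841873, GRCm38). The mean of 29 of the 30 was under 20 CPM in both groups, the exception being Pcdhgc3, and 25 of the 30 had their higher mean in GL261. Of the 28 that averaged 1 CPM or more, 14 were lower in mNS, 3 were higher and 11 were not called, 17 called genes against the background of 64.3%. Their median log2 difference was -0.53, against -0.00 for all genes tested. Their summed level was 366 ± 58.2 CPM in GL261 and 177 ± 4.26 CPM in mNS. The beta cluster, which has no constant exons common to its genes, summed to 58.6 ± 9.31 and 53.0 ± 2.92 CPM; its genes Pcdhb21 and Pcdhb22 overlap by 455 exon bases. In that cluster 3 of the 11 members were lower, 2 higher and 6 not called. In the gamma cluster 11 of 17 tested members were lower, 1 was higher and 5 were not called. By type these were 4 lower and 1 higher of 8 tested A genes, 4 lower of 6 B genes and all 3 C genes lower.

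Pcdhgc3, a C-type gamma isoform that is transcribed in many cell types, dominated the clusters. It was measured at 197, 266 and 288 CPM in GL261 and at 87.6, 94.9 and 94.3 CPM in mNS. The lowest GL261 value, at passage 17, was still above every mNS value. Its mean fell 2.71-fold, from 250.5 ± 47.2 to 92.3 ± 4.06 CPM (log2 difference -1.41 ± 0.13, limma adjusted p = 2.01e-05). Per kb of each gene's own exons it supplied 69.6% ± 2.34 of the clustered sum in GL261 and 55.3% ± 1.70 in mNS. It stood at 74.1 ± 14.0 CPM per kb in GL261, where Pcdhgb1 came next with 3.89 and overlapped Pcdhga6 with 3.52. In mNS it stood at 27.3 ± 1.20 CPM per kb, with Pcdhb16 next at 2.93. The other C-type isoforms, Pcdhgc4 (log2 difference -0.93) and Pcdhgc5 (-0.60), were also lower in mNS.

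Among the beta genes and the A-type gamma genes, 3 further members passed the 2-fold limit. Pcdhga6 gave 6.41, 10.5 and 10.7 CPM in GL261 and 3.47, 2.17 and 2.48 CPM in mNS, 3.41-fold lower (log2 difference -1.45 ± 0.21, limma adjusted p = 0.000397). Pcdhb14 gave 8.72, 10.5 and 10.7 CPM in GL261 and 3.25, 4.10 and 3.97 CPM in mNS, 2.64-fold lower (log2 difference -1.20 ± 0.14, limma adjusted p = 8.32e-05). In both genes the GL261 libraries lay above the mNS libraries, with passage 17 the lowest of GL261. Pcdhb16 showed the reverse, with 4.18, 6.73 and 5.64 CPM in GL261 and 14.9, 15.2 and 15.7 CPM in mNS. It rose 2.78-fold (log2 difference 1.34 ± 0.15, limma adjusted p = 8.88e-05).

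The few clustered genes that were higher in mNS were neighbours in their arrays. Pcdhb17, the next gene of the beta array after Pcdhb16, had means of 3.02 ± 1.07 CPM in GL261 and 5.91 ± 0.262 CPM in mNS, 1.96-fold higher (log2 difference 0.82 ± 0.21, limma adjusted p = 0.00761). The genes on either side of this pair, Pcdhb15 and Pcdhb18, were not called. Pcdhga1 had 1.49, 0.972 and 1.08 CPM in GL261 and 2.79, 2.32 and 3.26 CPM in mNS, 2.36-fold higher (log2 difference 0.80 ± 0.17, limma adjusted p = 0.00291). Its neighbour Pcdhga2 lay under the 1 CPM limit, with 17 reads in GL261 and 49 in mNS. When no such limit was set, Pcdhga2 had a log2 difference of 0.65 ± 0.17 and a limma adjusted p of 0.00857. These genes and the statement on neighbours were chosen after their values were seen, and no test of adjacency was made. The second member under the limit, Pcdhga10, had means of 1.28 CPM in GL261 and 0.697 CPM in mNS and, with no limit, a log2 difference of -0.43 ± 0.16 (limma adjusted p = 0.0407).

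**Figure D5:**
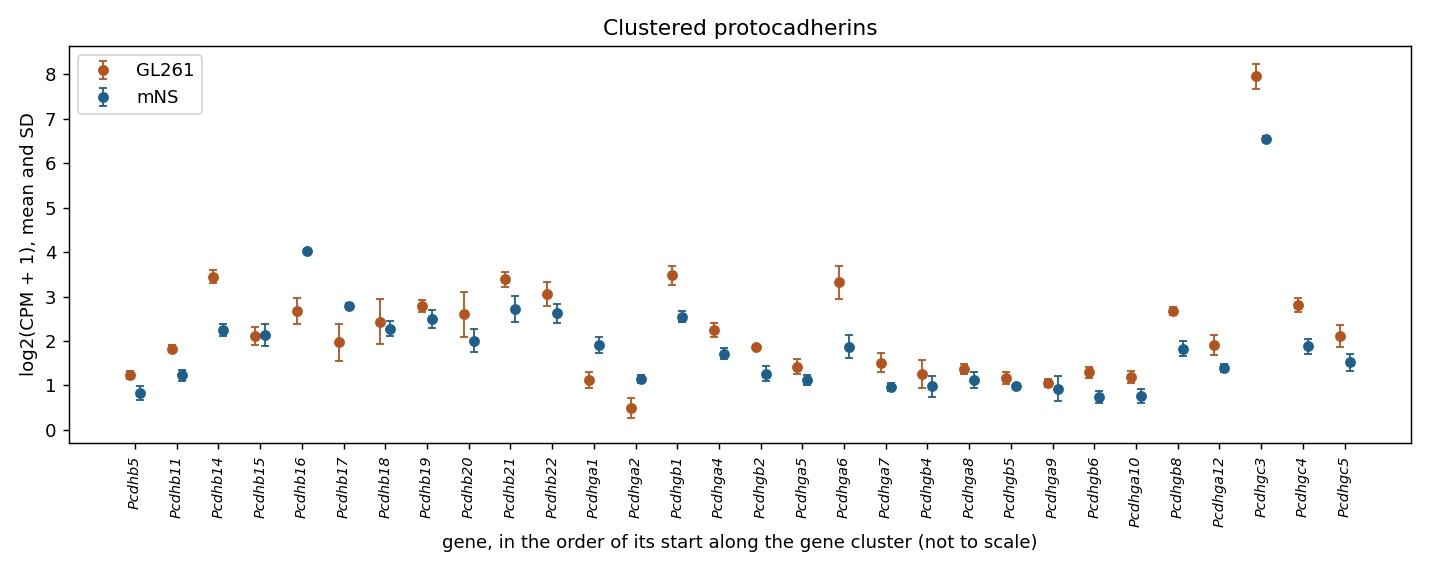
Mean and SD of log2(CPM + 1) over 3 libraries for each of the 30 clustered protocadherins, in the order of their starts along the clusters, with GL261 and mNS in different colours. Pcdhgc3 stands far above the rest in both groups; Pcdhb16, Pcdhb17, Pcdhga1 and Pcdhga2 are higher in mNS, and most other genes lie slightly lower there.

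Many of the smaller clustered calls rested on few reads or on particular libraries. The calls of Pcdhga12, Pcdhga4, Pcdhga7 and Pcdhgb6 were lost when DESeq2 was applied to the reads recovered from the table, with adjusted p-values of 0.0559 to 0.0815. Pcdhga12 also lost its call without GL261 replicate 3, mNS replicate 2 or mNS replicate 3 (limma adjusted p = 0.0771, 0.0629 and 0.0567). Pcdhgb6 lost it without GL261 replicate 3 or mNS replicate 2 (limma adjusted p = 0.0537 and 0.0557), and Pcdhga7 without GL261 replicate 2 (limma adjusted p = 0.0580). In the other direction, Pcdhb20 was called lower without GL261 replicate 1 (limma adjusted p = 0.00270) or mNS replicate 1 (0.0461), and Pcdhb22 without GL261 replicate 1 (0.0174). Gamma isoforms share their constant exons, so 30.8% to 62.7% of the 100-base windows of each gamma gene occur identically in another gene. The own first exons of Pcdhgc3, Pcdhgc4, Pcdhga1, Pcdhga2 and Pcdhga6 share none. The counting of reads in shared exons is not given in the sources used, and the levels of the gamma genes are uncertain to that extent.

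Some members also differed with passage within a group, described here without a test. Over mNS passages 72, 77 and 85, 16 of the 49 tested members fell at each step, 32.7% against 27.6% of all genes, and 9 rose at each step, 18.4% against 27.3%. The ratio of passage 72 to passage 85 was 2.01 for Cdh2, 2.61 for Cdh6 and 2.93 for Pcdh10. In GL261, passage 17 differed at least 1.5-fold from the mean of the later passages in 22.4% of members and 9.16% of all genes. Of these, 6 were higher at passage 17, such as Pcdh17 (a ratio of 3.77) and Cdh6 (1.86), and 5 were lower: Dchs1 (0.504), Pcdhb17 (0.492), Pcdhb18 (0.483), Pcdhb20 (0.475) and Pcdhga6 (0.604). Few reads lie behind some of these ratios, such as those of Pcdh9 (3.99, 9 reads in GL261) and Pcdhgb4 (1.90, 58 reads). Pcdh9, like Pcdh15 and Cdh18, averaged 1 CPM only through mNS, and members such as Pcdhgb6 only through GL261. Counting error widens such ratios, and whether the higher share among members reflects passage was not tested.

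Genes that work with the members were read from lists of known partners, beside a background of 64.3% of all genes called, 32.2% higher and 32.1% lower. Of 18 listed adherens junction partners, 7 were higher in mNS, 6 were lower and 5 were not called, near that background. Actn1 and Actn4, the alpha-actinins that crosslink actin, fell from 236 to 19.8 CPM (11.9-fold) and from 590.2 to 147 CPM (4.02-fold). Ajuba, a LIM protein at junctions, fell from 183 to 31.5 CPM, while Arvcf, a relative of p120 catenin, rose 15.1-fold from 3.10 to 46.8 CPM. Ctnnb1, beta catenin, was lower by a smaller margin (793 and 588 CPM, log2 difference -0.43), and its relative plakoglobin, Jup, was 1.57-fold higher (log2 difference 0.65). Thus the alpha, beta and p120 catenins were all lower in mNS, and Arvcf and Jup were higher.

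Of 15 planar polarity and Fat-Dachsous partners, 1 was higher, 6 were lower and 8 were not called. Of all genes 64.3% were called, 32.2% higher and 32.1% lower. Vangl1 (log2 difference -1.06) and Lix1l (-0.86) were among those lower. Mpdz, a scaffold with many PDZ domains, fell 103-fold from 59.7 to 0.579 CPM, or 224-fold without mNS replicate 3. Ankrd6, the diversin gene of planar polarity, rose 9.01-fold from 1.36 to 12.2 CPM. Among 12 genes of cadherin shedding, 4 were higher, 4 lower and 4 not called, near the background. The gamma-secretase subunit gene Psen2 was 2.27-fold higher and the membrane metalloproteinase gene Mmp14 lower (log2 difference -0.56, limma adjusted p = 0.026). The Mmp14 groups overlapped, with 46.1 CPM in GL261 at passage 17 and 47.4 CPM in mNS at passage 77. Among 18 regulators and effectors of clustered protocadherins, 10 were higher, 5 lower and 3 not called, beside 64.3% of all genes called, 32.2% higher and 32.1% lower. The cohesin subunit gene Stag2 was 2.30-fold higher, the DNA methyltransferase gene Dnmt3b had a log2 difference of 1.12, and Ctcf, the factor bound at the promoters of these clusters, was slightly lower (-0.20, limma adjusted p = 0.036). Of 4 tested repressors of E-cadherin, Twist1 (log2 difference 1.13) and Tcf4 (0.54) were higher, Zeb2 (-0.50) was lower and Zeb1 was not called. Of 7 desmosome plaque genes 3 were listed and 2 tested. Ppl was higher (log2 difference 1.55) and Pkp2 lower (-1.13). Pkp3, under the limit for testing, had means of 0.0722 CPM in GL261 and 1.42 CPM in mNS. None of these 6 lists moved in 1 direction only.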

How the data were processed

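The labels' protocols describe Trizol total RNA and stranded Illumina libraries. Tools in the submitters' processing notes, given without roles, are edgeR 3.4.2, HTSeq 0.5.3p9 and TopHat2 (version 2), and the build is mm10. The authors deposited 1 table of normalised signal per gene and library: TMM-scaled CPM, per the file's name and the labels, with column sums that differ between libraries. The value of 1 read was found from the steps between low values; 100% of the values were then whole within 0.001 reads. Depth is the sum of those reads over the listed genes. It limits the precision of genes near 1 CPM.

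The test was limma 3.58.1 (R 4.3.3) with trend, two-sided, on log2(CPM + 1) over 12006 genes averaging 1 CPM or more, GL261 against mNS, with Benjamini-Hochberg adjustment. On the recovered reads, edgeR 4.0.16 by quasi-likelihood called 7651 genes and all 34 members called by limma; its exact test called 36 members and DESeq2 1.42.0 called 30. The script was tested on simulated data. Values per library are given for members called with an absolute log2 difference of at least 1 or with a mean of at least 50 CPM in a group. Up to 4 called genes of each partner list are named, and all 10 progenitor markers. Ctnnb1, Jup, Ctcf, Zeb1, Csf1r, Col3a1, Pkp3 and the remaining members named were chosen after their values were seen. Members and lists were chosen with earlier results of these data known. Positions and exons are from GENCODE M21 (GRCm38), and promoter windows from RefSeq. Python 3.11.15 with pandas 2.3.3 and scipy 1.17.1 was used for counts and intervals. Alternatives were other pseudocounts, filters, limma settings and scalings, a stricter adjusted p, testing against a 2-fold change, and omission of each library in turn.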

Additional observations from a re-analysis of the deposited data

How the results depend on the processing

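Calls of members were 11 higher and 23 lower in mNS. A test against a 2-fold change gave 6 higher and 5 lower, with 1 classical cadherin higher, 0 clustered protocadherins higher and 1 lower, and 2 other members lower. A filter at a mean of 5 CPM tests fewer genes and gave 13 members lower, with clustered protocadherins 1 higher and 5 lower. Clustered protocadherins lower in mNS numbered 22 with array weights and 9 at an adjusted p under 0.01. The difference of Pcdh7 was near 0 and turned positive with array weights (log2 difference 0.0206) and with columns scaled to a common sum (0.0523), and lay between -0.0872 and 0.0330 when each library was left out in turn. The 21 members named by the rule were chosen partly by a called 2-fold difference in the main fit, which favours stable calls. For them and 17 alternatives, without the 2-fold test and the stricter adjusted p, 354 of 357 values kept direction and side of the threshold. The exceptions were the 3 of Pcdh7. The cause of these changes was not tested. Of the 49 members tested, 34 kept their status, called or not called, under every alternative that tested them, other than the 2-fold test and the stricter adjusted p. These are not the 34 members called. They include Cdh24, Pcdh7, Pcdhb15 and Pcdhgb5, which were not called, and leave out Pcdhga12, Pcdhga4, Pcdhga7 and Pcdhgb6, which lost their call. Every other member not called in the main fit was called under some alternative. Rescaling moved the median gene by 0.08 at most (log2). No paired analysis was possible because the labels give no replicate numbers that GL261 and mNS share. Depth limits the gamma and beta genes of few reads, and groups of 3 were not tested for outlying libraries.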
